A study of Drosophila melanogaster with 33 samples.

Results

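The regions described here are E(z) peaks of S2 cells that also carried a dRing peak in S2 cells and had neither an elongating-polymerase (Ser2P) peak in S2 cells nor an HA-AbdA peak in S2-AbdA cells. They were selected on the presence or absence of peaks in those 4 lists, with 1 shared base counted as an overlap and with chromosomes M, U, Uextra and the Het sequences left out. The rule found 170 regions among the 4309 E(z) peaks on the 6 chromosome arms (2L, 2R, 3L, 3R, 4 and X). The whole E(z) list of S2 cells held 6619 peaks, of which 2310 lay off these arms. With only the higher-scoring 50% of the E(z) and dRing lists the rule found 21 regions.

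Polycomb group proteins keep developmental genes silent in fly tissues and cell lines. E(z), the catalytic subunit of PRC2, methylates lysine 27 of histone H3, and dRing, the RING-type ubiquitin ligase of PRC1, modifies histone H2A. In flies both complexes meet at short DNA elements, the Polycomb response elements, and the GAGA factor (GAF) is among the DNA-binding proteins known from such elements and from promoters with paused polymerase. M1BP (Motif 1 binding protein) is a zinc finger factor of promoters. Rpb3 belongs to the core of RNA polymerase II and marks the enzyme in any state, whereas Ser2P is the form phosphorylated on its C-terminal domain during elongation. AbdA is the Hox transcription factor abdominal-A, which patterns the abdomen of the fly.

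The study used S2-DRSC-HA::AbdA cells (S2-AbdA cells), a line in which S2-DRSC stably carries AbdA with an HA tag. It was set against S2-DRSC itself (S2 cells, genotype wild type), a line that derives from late embryos. Cells of both lines were exposed to copper sulphate at 10 µM over 24 h, so S2 cells carried that treatment too. Chromatin immunoprecipitation with sequencing (ChIP-seq) was done with antibodies to HA and to 6 factors, with 2 replicates named for each of the 13 peak lists used here.

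Each list is named for a pair of replicates at once, so the spread between replicates is not known and no difference between lines or classes could be tested. The labels do not say whether replicates were separate cultures. Shares of regions are given with exact Clopper-Pearson 95% intervals, which cover counting error only and take regions as independent. No read depth is known, and the score of a peak is the authors' own and of unstated unit. Line and input DNA also cannot be told apart: the labels give all S2 lists input code B, the GAF and HA-AbdA lists of S2-AbdA cells code C and the other S2-AbdA lists code D. Positions are on build dm3. The annotation at hand was of Release 6, so regions are named by position, and no gene was assigned and no sequence is shown.

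The widths and scores of the 170 regions were close to those of most other E(z) peaks. Their E(z) peaks had a median width of 355 bp, with a lowest of 165 bp and a highest of 4613 bp, against a median of 405 bp over all E(z) arm peaks. The median was 356 bp at E(z) peaks on dRing with HA-AbdA and no Ser2P and 326 bp at those without dRing, Ser2P or HA-AbdA, and it was 898 bp at those on dRing with Ser2P and no HA-AbdA. Their E(z) scores ran from 4.47 to 84.3, with a median of 13.3 against 14.3 over all arm peaks. None of them was among the 100 E(z) arm peaks with the highest score, 2 were among the first 500, 20 among the first 1000 and 67 among the first 2000. These widths and scores come from the list that chose the regions and are given as a description.

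The dRing peak lay squarely on the E(z) peak at most regions. It covered a median of 97.3% of the E(z) peak, with a lowest of 34.3%, and the smallest shared stretch was 152 bases, at 2L:564036-564243. No region therefore entered on a grazing overlap. The dRing score of S2 cells had a median of 15.9 at the regions, with a lowest of 6.77 and a highest of 165, against a median of 24.5 at all E(z) arm peaks on dRing.

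On the other side of the rule, 862 E(z) peaks on dRing were set apart by an HA-AbdA peak without Ser2P. The fewest HA-AbdA bases on any of these was 155, at 3R:20407594-20407748, an E(z) peak of 155 bp that lay wholly under HA-AbdA. The share of the E(z) peak under HA-AbdA had a median of 100% and a lowest of 5.70%. Another 718 were set apart by Ser2P without HA-AbdA, with at least 121 bases under Ser2P, and 301 carried both. Among the regions kept, the closest to an HA-AbdA peak lay 31 bp from it, at X:8468100-8468380. The closest to an S2 Ser2P peak lay 224 bp away, at 2L:16288065-16288419.

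The regions were spread over all arms. Arm 3R held 46 of them, 3L held 39, 2L held 35, 2R held 32, X held 17 and chromosome 4 held 1. As a share of the E(z) peaks of each arm this was 4.41% for 3R (95% interval 3.25 to 5.84%), 4.16% for 3L, 4.05% for 2R, 3.83% for 2L, 2.90% for X (95% interval 1.70 to 4.60%) and 2.56% for chromosome 4 (1 of 39, 95% interval 0.065 to 13.5%). The intervals of the arms overlap, and the order of the arms was not tested.

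HA-AbdA peaks were seldom far off. The gap to the nearest HA-AbdA peak had a median of 2953 bp, and 35 of 170 regions (20.6%) lay within 1 kb of one, 108 (63.5%) within 5000 bp and 133 (78.2%) within 10 kb. The region farthest from HA-AbdA, 3L:23892420-23892875, had a gap of 160284 bp. Ser2P peaks of S2 cells were sparser on the arms, and the gap to them had a median of 18779 bp, with 13 regions (7.65%) within 1 kb. The 414 E(z) peaks that had no dRing, Ser2P or HA-AbdA peak stood at similar distances, with median gaps of 2869 bp to HA-AbdA and 19165 bp to Ser2P.

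**Figure D1:**
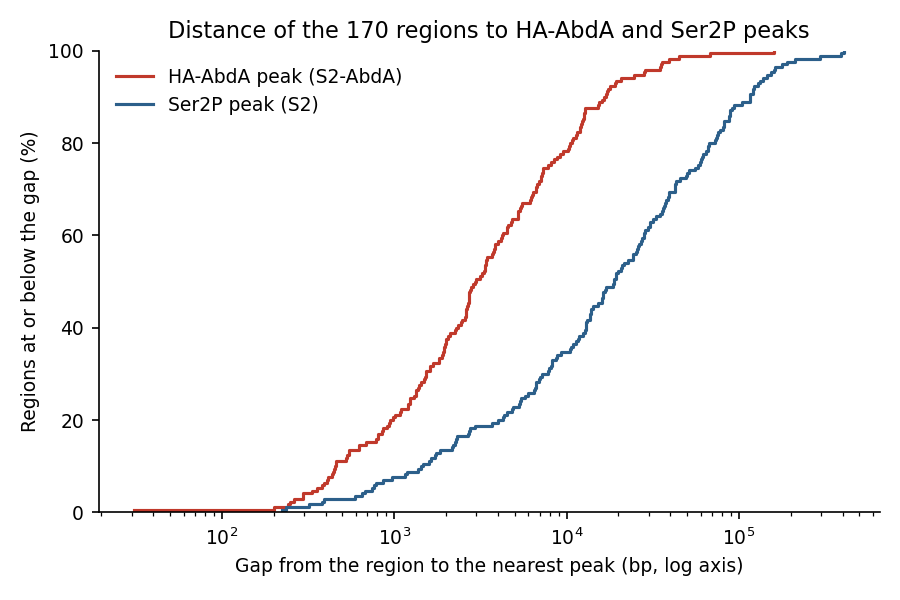
Share of the 170 regions (%, vertical axis) at or below a given gap in bp (horizontal log axis) to the nearest HA-AbdA peak of S2-AbdA cells (red) and the nearest Ser2P peak of S2 cells (blue). The HA-AbdA curve lies to the left, with a median gap of 2953 bp against 18779 bp for Ser2P, and 168 of 170 regions have an HA-AbdA peak within 50000 bp.

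Most of the regions stood alone. When regions up to 10 kb apart were joined, 145 of 170 stayed single, and the others formed 6 pairs, 3 groups of 3 and 1 group of 4. At least 1 further E(z) peak of S2 cells lay within 10 kb of 110 regions (64.7%, 95% interval 57.0 to 71.9%). At 79 regions (46.5%) an E(z) peak within that distance carried HA-AbdA. These shares were not counted for other E(z) peaks, so there is no level to set them against.

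The group of 4 spanned 8.96 kb at 2L:16279459-16288419. It held 7 GAF peaks in S2-AbdA cells and 2 in S2 cells, 4 M1BP and 4 Rpb3 peaks in each line, 3 dRing peaks in S2-AbdA cells and 5 in S2 cells, and no HA-AbdA peak. A single Ser2P peak per line also lay in this span, on none of the regions. Of the groups of 3, the one at X:21482462-21494929 had an M1BP peak on each region in both lines and no GAF peak in either line. Each region of that group also carried a Ser2P peak in S2-AbdA cells.

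The group at 2R:2020328-2032582 held 3 HA-AbdA peaks between its regions, and all 3 regions had E(z), dRing and Rpb3 peaks in S2-AbdA cells. The most compact group of 3, at 2R:6444640-6447480, spanned 2.84 kb and held 3 Rpb3 peaks in each line. Its region 2R:6444640-6444833 had no Rpb3 peak in either line. The fifth group was a pair at 3R:16092864-16098620, with no GAF or Rpb3 peak in either line. It contains the widest region, 3R:16092864-16097476 (4613 bp, E(z) score 28.9), which had E(z), dRing, M1BP and Ser2P peaks in S2-AbdA cells. The next in width were 2L:3777789-3779049 (1261 bp) and 2R:2020328-2021440 (1113 bp), and both carried dRing and Rpb3 peaks in S2-AbdA cells.

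The 10 regions with the highest E(z) scores all had an E(z) peak in S2-AbdA cells, and 5 of them had dRing there. The strongest, 2L:10396036-10396452 (E(z) score 84.3, rank 235 of the arm peaks), lay 201 bp from an HA-AbdA peak. It had M1BP and Rpb3 in both lines, no GAF in either, and in S2-AbdA cells a Ser2P peak but no dRing peak. The next, 3R:12694972-12695522 (score 59.9), had E(z), dRing and GAF peaks in both lines and no Rpb3 peak in either, with an M1BP peak in S2-AbdA cells alone. The third, 2L:16284259-16285271 (score 53.6), belongs to the group of 4 and lacked dRing in S2-AbdA cells.

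Of the other 7, 2R:1606222-1606932 (score 45.6) and X:12679051-12679373 (35.0) had GAF and Rpb3 in both lines. The region at 2R:11735512-11735762 (44.4) had M1BP and Rpb3 in both lines and GAF in S2-AbdA cells alone. Regions X:15990569-15990889 (41.5) and 3L:11986176-11986424 (39.2) had M1BP in both lines and no GAF, and neither had dRing in S2-AbdA cells. The region at 2R:19468119-19468643 (39.2) had Rpb3 in both lines, GAF in S2-AbdA cells alone and no M1BP, whereas 3L:342861-343214 (38.6) had M1BP in both lines and no Rpb3. Thus 9 of the 10 carried M1BP in S2-AbdA cells and 7 did in S2 cells, and 7 carried GAF in S2-AbdA cells and 3 did in S2 cells. Over all 170 regions M1BP lay at 39.4% in S2-AbdA cells and 43.5% in S2 cells, and GAF at 57.6% and 50.6%. Among all E(z) arm peaks the shares in the same order were 49.5%, 52.8%, 45.0% and 46.2%.

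Factors that the rule did not use were then placed on the regions. In S2 cells, 91 of 170 regions (53.5%, 95% interval 45.7 to 61.2%) carried Rpb3, 86 (50.6%, 42.8 to 58.3%) carried GAF and 74 (43.5%, 36.0 to 51.3%) carried M1BP. Over all 4309 E(z) arm peaks these shares were 52.8% for Rpb3, 46.2% for GAF and 52.8% for M1BP. For Rpb3 and GAF the level of E(z) peaks at large thus lay inside the interval of the regions. For M1BP it lay above that interval. The 4309 include the 718 sites on dRing with Ser2P and no HA-AbdA. Over the other 3591 the shares were 61.5% for Rpb3, 45.6% for GAF and 47.9% for M1BP. Of these levels, that of Rpb3 lay just above the interval of the regions, and those of GAF and M1BP lay inside it. M1BP was at 65.9% of the 1881 other E(z) peaks on dRing (63.7 to 68.0%), and at 36.0% of the 414 E(z) peaks without dRing, Ser2P or HA-AbdA (31.4 to 40.8%). With only the higher-scoring 50% of each S2 list, the regions had Rpb3 at 26.5% and M1BP at 22.9%. No share at this cut was counted for other E(z) peaks.

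The 3 factors occurred in every combination. In S2 cells GAF with Rpb3 and no M1BP was the most frequent, at 34 regions (20.0%), followed by GAF alone and M1BP alone at 24 each (14.1%) and M1BP with Rpb3 at 22 (12.9%). All 3 lay together at 20 regions (11.8%), Rpb3 alone at 15 and GAF with M1BP at 8, and 23 regions (13.5%) had none of the 3. M1BP was found at 28 of 86 regions with GAF (32.6%, 95% interval 22.8 to 43.5%) and at 46 of 84 without (54.8%, 43.5 to 65.7%). Rpb3 was found at 54 of 86 regions with GAF (62.8%, 51.7 to 73.0%) and at 37 of 84 without (44.0%, 33.2 to 55.3%), and hardly varied with M1BP (56.8% with and 51.0% without). M1BP also went with the E(z) score: it lay at 56.5% of the 85 regions with the higher E(z) scores (45.3 to 67.2%) and at 30.6% of the 85 with the lower scores (21.0 to 41.5%). The splits by GAF, M1BP and E(z) score were counted within the regions only. Whether they differ from those at other E(z) peaks is not known.

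Peaks of these factors covered the centre of the E(z) peak more often than its flanks. Their own centres lay within 250 bp of it at 37.6% of regions for GAF of S2 cells, 41.8% for Rpb3 and 41.2% for M1BP. Coverage by distance was counted around the regions only. At the centre of the E(z) peak, 50.6% of regions lay under GAF of S2 cells, and a mean of 6.29% did so at 5 to 10 kb to either side. For Rpb3 these values were 51.2% and 8.69%, and for M1BP 43.5% and 3.39%. HA-AbdA peaks, absent from the centre by the rule, covered a mean of 17.8% of regions at 5 to 10 kb, more than any other list at that distance. The HA-AbdA list also covered the most of the arms, 12.1 Mb, and the Ser2P list of S2-AbdA cells came next at 8.10 Mb. The part of list size in this ranking was not tested.

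**Figure D2:**
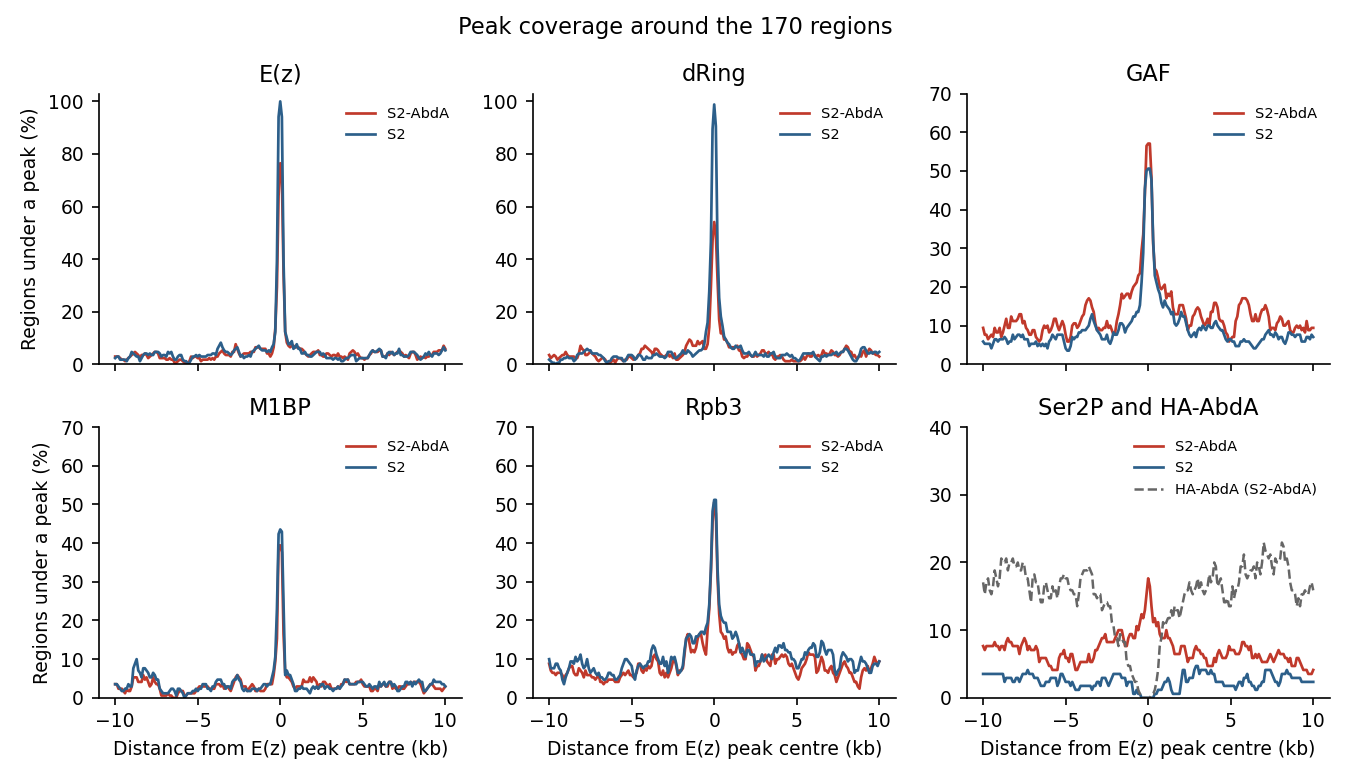
Share of the 170 regions that lie under a peak (%, vertical axes, scales differ between panels) at each distance from the E(z) peak centre (kb, horizontal axes), for S2-AbdA lists (red) and S2 lists (blue), with HA-AbdA as a dashed line. GAF, M1BP and Rpb3 rise sharply at the centre in both lines, and Ser2P of S2-AbdA cells reaches 17.6% there, whereas S2 Ser2P and HA-AbdA are at 0 by the rule.

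**Figure D3:**
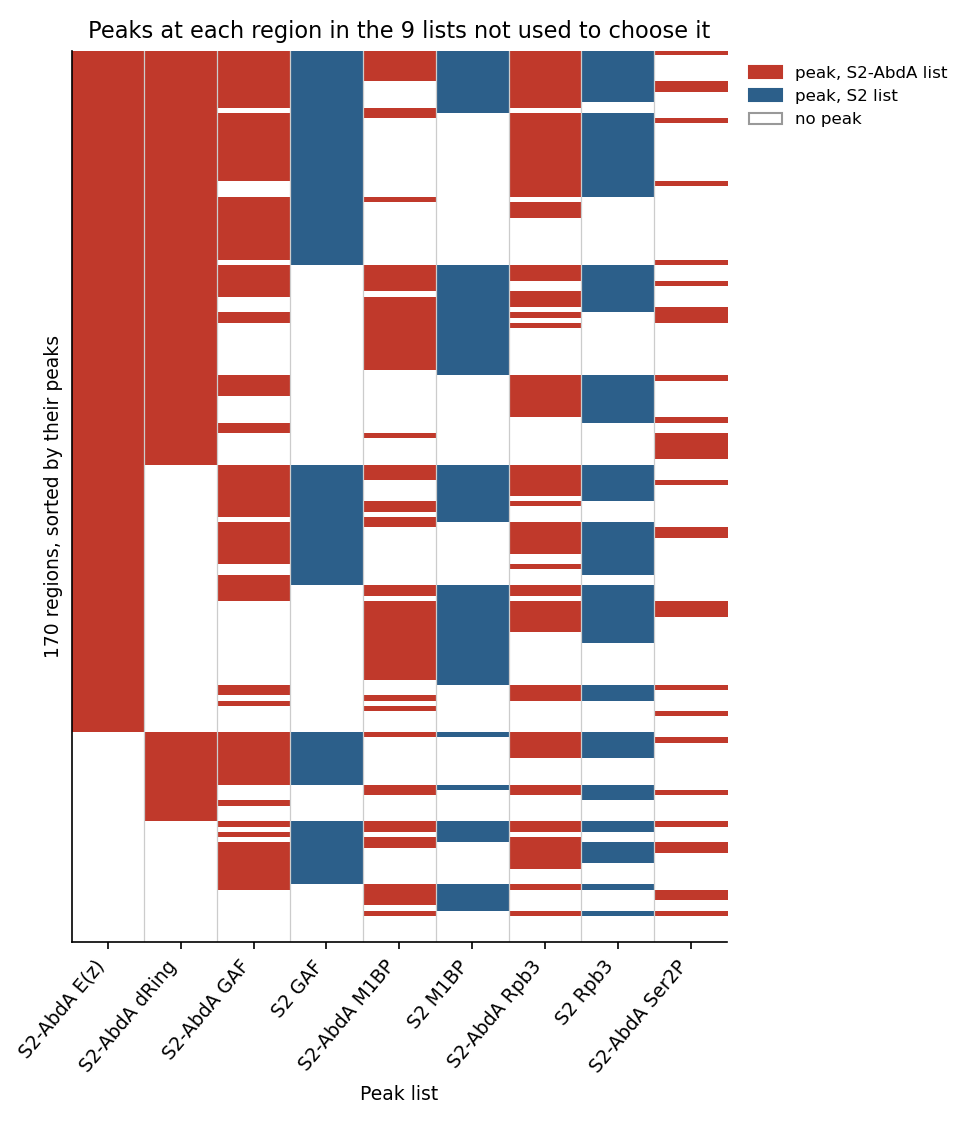
Each row is 1 of the 170 regions and each column 1 of the 9 lists that did not choose the regions. A filled cell marks a peak (red for S2-AbdA lists, blue for S2 lists) and a white cell none. Rows are sorted by E(z) and dRing in S2-AbdA cells and then by the S2 lists, so that the 79 regions with both Polycomb factors in S2-AbdA cells are at the top.

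The next question was whether the Polycomb peaks were present in cells that express AbdA, at sites where AbdA itself had no peak. An E(z) peak was found in S2-AbdA cells at 130 of 170 regions (76.5%, 95% interval 69.4 to 82.6%), and the share over all E(z) arm peaks was also 76.5%. A dRing peak was found at 96 regions (56.5%, 48.7 to 64.0%). With only the higher-scoring 50% of each S2-AbdA list these shares were 30.0% for E(z) and 34.7% for dRing. Shares at this cut were not counted for other E(z) peaks. With the full list the dRing share over all E(z) arm peaks was 45.0%, but only 2051 of those had a dRing peak in S2 cells. Among the 1881 other E(z) peaks on dRing the shares were 87.6% for E(z) (86.0 to 89.1%) and 65.0% for dRing (62.8 to 67.2%).

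Both Polycomb peaks were present in S2-AbdA cells at 79 regions (46.5%, 95% interval 38.8 to 54.3%), E(z) without dRing at 51 (30.0%), dRing without E(z) at 17 (10.0%) and neither at 23 (13.5%). At the 862 sites on dRing with HA-AbdA and no Ser2P the shares in the same order were 42.5%, 38.2%, 7.19% and 12.2%, and at the 301 sites with both they were 51.5%, 31.6%, 6.98% and 9.97%. The dRing peak was thus missing at 74 regions, although the dRing list of S2-AbdA cells was the longer one on the arms, with 4168 peaks against 3061 in S2 cells. With 1 list per line, a missing peak cannot be told apart from a peak under the authors' threshold.

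Peaks missing from S2-AbdA cells had lower median scores in S2 cells, but for dRing some scored high. Regions without dRing in S2-AbdA cells had a median S2 dRing score of 14.2 and a highest of 78.7. At regions with dRing there the median was 24.0. Regions without E(z) in S2-AbdA cells had a median S2 E(z) score of 7.84 and a highest of 17.7, against a median of 15.2 at regions with it. E(z) was present at 76 of the 85 regions with the higher E(z) scores (89.4%, lower bound of the 95% interval 80.8%) and at 54 of the 85 with the lower scores (63.5%, 52.4 to 73.7%). The dRing shares of the same sets were 52.9% and 60.0%, with overlapping intervals. Split by dRing score instead, dRing was present at 58 of the 85 regions with the higher scores (68.2%, 57.2 to 77.9%) and at 38 of the 85 with the lower scores (44.7%, 33.9 to 55.9%). The part of the peak threshold in these shares was not tested, and the same splits were not counted for other E(z) peaks.

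**Figure D4:**
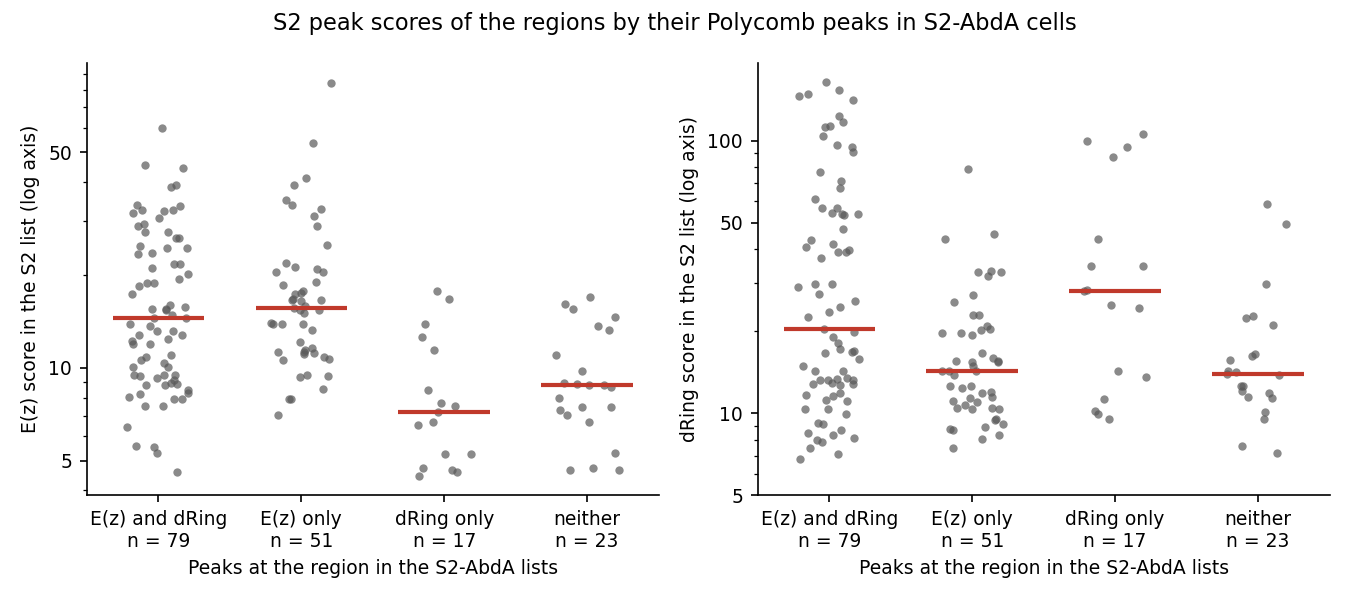
E(z) score (left) and dRing score (right) of each of the 170 regions in the S2 lists (log axes, unit not given), split by the Polycomb peaks found at the region in the S2-AbdA lists; red bars are medians. Regions without E(z) in S2-AbdA cells sit low on the left (medians 7.18 with dRing only and 8.78 with neither). Regions without dRing have the lower medians on the right (14.3 with E(z) only and 14.0 with neither), with scores up to 78.7.

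The 5 regions with the highest E(z) score among those that lacked both peaks in S2-AbdA cells still carried other factors. The region at 3R:17679346-17680220 (E(z) score 17.0) had GAF and Rpb3 in both lines. The region at 2L:5001238-5001655 (15.5) had GAF, M1BP and Rpb3 in both lines and a Ser2P peak in S2-AbdA cells. At 3L:7904019-7904634 (16.2), M1BP lay in both lines, Rpb3 in S2-AbdA cells alone and GAF in S2 cells alone. The region at 2R:6444640-6444833 (14.6) had M1BP in both lines, and 2R:21001831-21002158 (13.7) had GAF in both lines, and neither of this pair had Rpb3.

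The Polycomb peaks of S2-AbdA cells were next split by the other factors. E(z) lay at 63 of 74 regions with S2 M1BP (85.1%, 95% interval 75.0 to 92.3%) and at 67 of 96 without (69.8%, 59.6 to 78.7%). The order was the opposite for dRing, at 35 of 74 with M1BP (47.3%, 35.6 to 59.3%) and 61 of 96 without (63.5%, 53.1 to 73.1%). With and without S2 GAF, E(z) lay at 74.4% and 78.6% and dRing at 59.3% and 53.6%. With and without S2 Rpb3, E(z) lay at 82.4% and 69.6% and dRing at 57.1% and 55.7%. All of these pairs of intervals overlap.

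Nearness to HA-AbdA was also compared. Of the 35 regions within 1 kb of an HA-AbdA peak, 26 had dRing in S2-AbdA cells (74.3%, 95% interval 56.7 to 87.5%), against 70 of the 135 farther away (51.9%, 43.1 to 60.5%). E(z) was present at 25 of 35 near regions (71.4%) and 105 of 135 farther ones (77.8%). GAF of S2-AbdA cells lay at 68.6% of the near and 54.8% of the farther regions, and GAF of S2 cells at 65.7% and 46.7%. Intervals overlapped in every one of these comparisons.

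Most regions had the same state of GAF, of M1BP or of Rpb3 in both lines when each was taken alone. In S2-AbdA cells GAF lay at 98 regions (57.6%, 95% interval 49.8 to 65.2%), against 86 in S2 cells; 76 regions had it in both lines, 22 in S2-AbdA cells alone and 10 in S2 cells alone. Over all E(z) arm peaks GAF was at 45.0% in S2-AbdA cells, with 13.0% in S2-AbdA cells alone and 14.3% in S2 cells alone. Without the 718 sites on dRing with Ser2P and no HA-AbdA these values were 52.4%, 15.2% and 8.47%, each inside the matching interval of the regions. The regions thus had GAF in S2-AbdA cells alone at 12.9% (8.29 to 18.9%), an interval that holds the value of all E(z) peaks, and in S2 cells alone at 5.88% (2.86 to 10.6%). The share with GAF in S2 cells alone was 6.61% (5.05 to 8.48%) at the 862 sites on dRing with HA-AbdA and no Ser2P, 7.25% (4.94 to 10.2%) at the 414 E(z) peaks without dRing, Ser2P or HA-AbdA, and 43.6% (39.9 to 47.3%) at the 718 sites on dRing with Ser2P and no HA-AbdA. The GAF list of S2-AbdA cells was also the longer one on the arms, with 9472 peaks against 5407, and its input code was not that of the other factors. Off the arms lay 0.61% of the GAF peaks of S2-AbdA cells and 23.7% of those of S2 cells. For Rpb3 these shares were 0.63% and 0.60%. The part of this in the GAF counts by line was not tested.

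M1BP lay at 67 regions in S2-AbdA cells (39.4%, 95% interval 32.0 to 47.2%) and 74 in S2 cells, with 58 in both lines, 9 in S2-AbdA cells alone and 16 in S2 cells alone. Rpb3 lay at 88 regions in S2-AbdA cells (51.8%, 44.0 to 59.5%) and 91 in S2 cells, with 79 in both lines, 9 in S2-AbdA cells alone and 12 in S2 cells alone. Over all E(z) arm peaks the S2-AbdA shares were 49.5% for M1BP and 51.4% for Rpb3. Without the 718 sites on dRing with Ser2P and no HA-AbdA they were 43.6% for M1BP and 59.9% for Rpb3. The level of M1BP then lay inside the interval of the regions, and that of Rpb3 just above it. With only the higher-scoring 50% of each S2-AbdA list, the regions had M1BP at 18.8% and Rpb3 at 28.2%. This cut was not applied to other E(z) peaks. Peaks in 1 line alone were near the level of all E(z) arm peaks. M1BP was in S2-AbdA cells alone at 5.29% of the regions and 4.64% of all E(z) arm peaks, and in S2 cells alone at 9.41% and 7.94%. Rpb3 was in S2-AbdA cells alone at 5.29% of the regions and 5.31% of all E(z) arm peaks, and in S2 cells alone at 7.06% and 6.71%. At 102 of 170 regions (60.0%, 52.2 to 67.4%) the state of all 3 factors was the same in both lines, as it was at 55.5% of all E(z) arm peaks. GAF with Rpb3 and no M1BP was again the most frequent combination in S2-AbdA cells, at 43 regions (25.3%) against 34 in S2 cells, and M1BP with Rpb3 and no GAF lay at 15 regions (8.82%) against 22 (12.9%) in S2 cells. Over all E(z) arm peaks the first combination lay at 22.4% in S2-AbdA cells and 17.6% in S2 cells, and the other at 12.3% in S2-AbdA cells and 16.9% in S2 cells. Scores were lower at peaks found in S2 cells alone for M1BP and Rpb3. The S2 score of M1BP had a median of 13.6 at regions where it was missing from S2-AbdA cells and 80.1 where it was present in both, and that of Rpb3 had medians of 26.8 and 50.2. For GAF the order was the opposite, with a median S2 score of 189 at the 10 regions where it was missing from S2-AbdA cells and 105 at the 76 where it was present. In the S2-AbdA list the median GAF score was 62.5 at the 22 regions with GAF in S2-AbdA cells alone and 194 at the 76 with it in both lines.

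Of the 5 highest-scoring GAF peaks in S2-AbdA cells alone, the first lay at 2L:6787329-6787964 (GAF score 251) on a region with M1BP and Rpb3 in both lines. The others lay at 2L:20936046-20936400 (198), 3R:736130-736430 (164), 2R:19468119-19468643 (164) and 2L:16284259-16285271 (149), and all 5 regions had E(z) in S2-AbdA cells. Of the 5 highest in S2 cells alone, the first lay at 2R:5762573-5762863 (GAF score 293), which had neither E(z) nor dRing in S2-AbdA cells. The others lay at 3L:19888558-19889058 (274), 3R:19547774-19548006 (239), 3L:7904019-7904634 (226) and 3R:19118737-19119228 (225). Rpb3 was present in S2-AbdA cells at each of these 5 but the one at 3R:19547774-19548006.

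Elongating polymerase was absent from the regions in S2 cells by the rule, and its list in S2-AbdA cells was free to differ. There a Ser2P peak lay at 33 of 170 regions (19.4%, 95% interval 13.8 to 26.2%), against 51.6% of all E(z) arm peaks, which include those with Ser2P in S2 cells. The share was 20.0% when 50% or more of the shorter peak had to be shared, 8.24% with peak centres within 250 bp and 3.53% with only the higher-scoring 50% of the Ser2P list. These settings were not applied to other E(z) peaks. The Ser2P list of S2-AbdA cells had 3629 peaks on the arms and that of S2 cells 1670. The Ser2P peaks on the regions were weak, with a median score of 4.22 against 5.15 over the arm peaks of that list. Among the 414 E(z) peaks without dRing, Ser2P or HA-AbdA the share was 28.0% (23.7 to 32.6%).

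Polycomb shares with and without Ser2P differed by less than their intervals. Regions with Ser2P in S2-AbdA cells had dRing at 19 of 33 (57.6%, 95% interval 39.2 to 74.5%) and those without at 77 of 137 (56.2%, 47.5 to 64.7%), and E(z) at 75.8% and 76.6%. The highest Ser2P score, 14.9, was at 2R:7469543-7469762, with E(z), GAF and Rpb3 in S2-AbdA cells. It was followed by 3L:3399524-3399964 (12.0) and 3L:1177258-1177498 (11.1), both with E(z), dRing, GAF and Rpb3 in S2-AbdA cells. The last of the 5 were 3R:8325523-8325937 (10.7) and 3R:736130-736430 (9.07), both with E(z) and dRing and without Rpb3 in S2-AbdA cells.

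The regions were last set beside the other E(z) peaks on dRing in S2 cells. Most shares lay close to those of the 862 that carried HA-AbdA without Ser2P. Rpb3 lay in S2 cells at 53.5% of the regions and 54.9% of those sites, GAF at 50.6% and 45.9%, and Ser2P in S2-AbdA cells at 19.4% and 18.7%. M1BP of S2 cells was the exception, at 43.5% (95% interval 36.0 to 51.3%) of the regions and 58.4% (55.0 to 61.7%) of the HA-AbdA sites, and in S2-AbdA cells it lay at 39.4% (32.0 to 47.2%) and 51.2% (47.8 to 54.5%).

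The 718 sites with Ser2P and no HA-AbdA had shares farther from those of the regions in most lists. Rpb3 of S2 cells lay at 53.5% of the regions and 8.91% of these sites (95% interval 6.93 to 11.2%), and M1BP at 43.5% and 77.4% (74.2 to 80.4%). GAF of S2-AbdA cells lay at 57.6% and 7.80% (5.95 to 10.0%), whereas GAF of S2 cells lay at 50.6% and 49.2%. Their E(z) peaks were stronger and wider, with median scores of 13.3 at the regions and 58.7 at these sites and median widths of 355 and 898 bp. E(z) and dRing lay together in S2-AbdA cells at 46.5% of the regions and 84.8% of these sites (82.0 to 87.4%). None of these differences has a test, because peaks of 1 list are not replicates. The lists also differed in their share of peaks off the 6 arms. It was 0.60% for Rpb3 of S2 cells, 0.63% for Rpb3 and 0.61% for GAF of S2-AbdA cells, and 0.39% for HA-AbdA. In every other list it was 20.1% or more, with 23.7% for GAF and 61.2% for Ser2P of S2 cells. The part of this in the shares at the 718 sites was not tested.

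**Figure D5:**
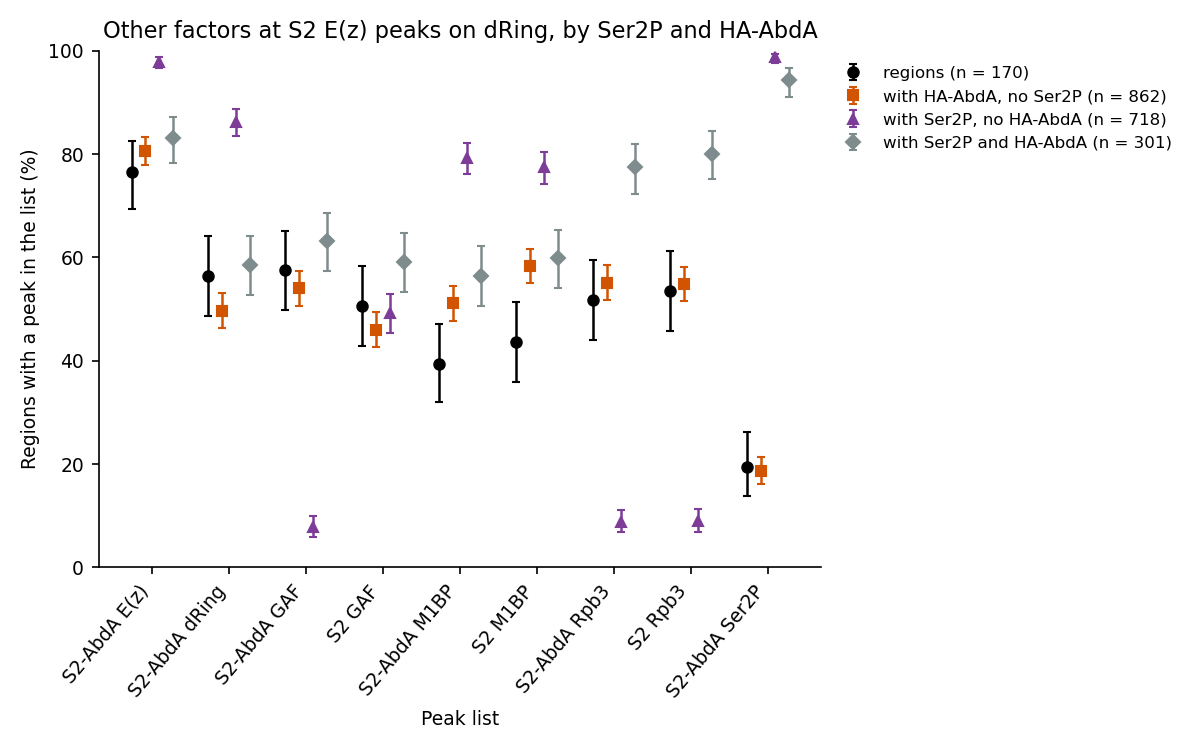
Share of S2 E(z) peaks on dRing (%, vertical axis) with a peak in each of 9 lists (horizontal axis), for the 170 regions (black circles), sites with HA-AbdA and no Ser2P (orange squares), with Ser2P and no HA-AbdA (purple triangles) and with both (grey diamonds). Bars are exact 95% intervals for counting error. The black and orange points lie close together except for M1BP, and the purple points lie below all others for Rpb3 of both lines and GAF of S2-AbdA cells and above all others for E(z), dRing and M1BP. For Ser2P of S2-AbdA cells the purple and grey points are both high, at 98.7% and 94.4%.

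Counted over the 9 lists that did not choose them, the regions had a peak in 4 of the lists most often (37 regions). A single region had all 9, X:15213340-15213511, which had E(z), dRing and Ser2P in S2-AbdA cells and GAF, M1BP and Rpb3 in both lines. Regions with no GAF, M1BP or Rpb3 peak in either line numbered 17 (10.0%, 95% interval 5.93 to 15.5%). Among these 17, 1 region had E(z) and dRing in S2-AbdA cells with no GAF, M1BP, Rpb3 or Ser2P peak in any list, 3L:20470045-20471115, a wide region of 1071 bp. Another 5 of the same 17 had no peak in any of the 9 lists. They were 3L:4840597-4840887, 3L:5335094-5335258, 3L:23892420-23892875, 3R:3297681-3297878 and, on chromosome 4, 4:510849-511059, and their E(z) scores ran from 4.66 to 11.0. Numbers of lists with a peak, and of regions without these factors, were counted for the regions only, so there is no level to set them against. The regions picked out here by their state, the ones nearest to HA-AbdA or Ser2P and the one farthest from HA-AbdA were chosen after their values were seen.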

How the data were processed

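ChIP-seq reads of 33 samples were processed by the submitters with BWA 0.7.12 and MACS2 on build dm3, per the submitters' processing notes. Not given in the sources used here are the settings and how replicates were combined. The deposited files are 13 peak lists with a score per peak of unstated unit, per the file contents, used only within a list. The HA control of S2 cells and 6 inputs entered no comparison. Largest peak ends, for example 27898841 on 3R, differ from Release 6, where 3R is 32079331 bp long.

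Regions were found and overlaps counted with Python 3.11.15, pandas 2.3.3, numpy 2.4.6 and scipy 1.17.1. Overlap counts matched bedtools 2.31.1 in 13 lists, of which 0 differed. Printed starts are 1-based. Groups of regions allow gaps of 10 kb. No test was made, since there is 1 list per antibody and line.

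Regions named are the 10 with the highest E(z) score, the 5 largest groups, the 5 leading ones lacking both Polycomb peaks in S2-AbdA cells, the 5 leading ones with Ser2P there, the 5 leading GAF peaks of either line alone, the 3 widest and those with the fewest bases shared with dRing or, just outside the rule, HA-AbdA. The regions and lists were chosen with earlier results of these data known. Alternatives were a stricter overlap, centre distances, stronger peaks, and subsets of regions.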

Additional observations from a re-analysis of the deposited data

How the results depend on the processing

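The number of regions was 175 with a shared stretch of at least 50% of the shorter peak, 125 without those within 1 kb of HA-AbdA or S2 Ser2P, and 150 without those on all of GAF, M1BP and Rpb3 of S2 cells. Under these settings every share recomputed stayed within the 95% interval of the reported share. With only the higher-scoring 50% of the E(z) and dRing lists, the rule found 21 regions. The limit was set over whole lists, and the median E(z) score of S2 cells was 18.1 over the list and 14.3 on the arms. With the higher-scoring 50% of each list set beside the regions, S2-AbdA shares were 30.0% for E(z), 34.7% for dRing, 42.9% for GAF, 18.8% for M1BP, 28.2% for Rpb3 and 3.53% for Ser2P. S2 shares were 34.1% for GAF, 22.9% for M1BP and 26.5% for Rpb3. With centres within 250 bp, GAF lay at 47.1% in S2-AbdA cells and 37.6% in S2 cells, Rpb3 at 41.8% in each line and Ser2P of S2-AbdA cells at 8.24%. The cause of these shifts was not tested. The higher-scoring lists hold fewer peaks by construction, and shares at these settings were not counted for all E(z) arm peaks. No paired analysis was possible because each antibody and line has 1 list, and no replicate could be left out.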

Other observations

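The rule was also applied with the E(z), dRing and Ser2P lists of S2-AbdA cells. Of 3958 E(z) arm peaks of S2-AbdA cells, 134 (3.39%, 95% interval 2.84 to 4.00%) had dRing and neither Ser2P nor HA-AbdA. Of these, 62 (46.3%, 37.6 to 55.1%) lay on 1 of the 170 regions. In a separate count the S2 E(z) peak of each region was set against the S2-AbdA lists. There 62 of the 170 (36.5%, 29.2 to 44.2%) overlapped E(z) and dRing peaks and no Ser2P peak. An E(z) peak of S2 cells underlay 109 of the 134, a dRing peak of S2 cells 79 and a Ser2P peak of S2 cells 11.

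At the 96 regions with dRing in both lines, the dRing peak of S2-AbdA cells was the narrower one in 72 cases (75.0%) and the wider in 24, with median widths of 421 bp in S2-AbdA cells and 445 bp in S2 cells. At the 862 sites with HA-AbdA and no Ser2P the S2-AbdA peak was narrower in 82.2% of 428 cases, and at the 718 sites with Ser2P and no HA-AbdA in 79.2% of 619 cases. E(z) peaks at the regions were narrower in S2-AbdA cells in 62 (47.7%) and wider in 66 of 130 cases. They were narrower in 61.0% of 695 cases at the sites with HA-AbdA and no Ser2P. At the sites with Ser2P and no HA-AbdA this was 77.1% of 703 cases, and at those with both 52.8% of 250. These widths have no test.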
